A study of Mus musculus with 6 samples.

Results

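The genes described here encode the cullin ubiquitin ligases: the 8 cullins Cul1, Cul2, Cul3, Cul4a, Cul4b, Cul5, Cul7 and Cul9, together with Ddb1 and Rbx1, their partners. These 10 were found by symbol among the 54838 genes of the count table, by gene family and not by their values. However, Cul4b, Cul1 and Ddb1 had been picked for PCR from these same libraries, so their differences here are not independent evidence. In the paper's real-time PCR all 3 were lower in transgenic mice, but none at a p under 0.05 by Tukey's test. For Cul4b that PCR used mice of other ages. RNA was sequenced from hippocampi of female mice aged 7 months, 3 of them wild-type and 3 of the line Tg(ORAI1)Ibd, with 1 library per mouse. The transgenic mice belong to a single line on the FVB/NJ background and carry the human ORAI1 coding sequence in a Thy1.2 cassette, which drives expression in neurons; the labels name no other allele or agent in either group. The strain of the wild-type mice is not stated in the labels. Libraries held 37414241 to 52497799 counts. Wild-type mouse 3 and transgenic mouse 1 stood apart from the others of their group: over 11191 genes their log2 CPM differed from those of group mates by a root mean square of 0.178 to 0.262, against 0.124 between wild-type mice 1 and 2 and 0.122 between transgenic mice 2 and 3. Gfap, 1 of 5 astrocyte markers examined, is named here outside the naming rule given below. Gfap was at 836 CPM in wild-type mouse 3 and at 323 and 355 CPM in the other wild-type mice. It was at 386 CPM in transgenic mouse 1 and at 922 and 840 CPM in the other transgenic mice. Orai1, which here also takes up reads of the human sequence, was higher in every library labelled transgenic (log2 fold change 5.42 ± 0.066, SE, edgeR adjusted p = 3.84e-08), as was Thy1, part of which is in the cassette (2.66 ± 0.092, SE, edgeR adjusted p = 5.03e-05). All 5 markers of the hippocampal fields were detected in both genotypes, at a summed 514 CPM or more in each wild-type mouse. CPM are counts scaled to library size. FPKM divide CPM by the exonic length in kb, so that levels of different genes can be compared. All log2 fold changes below set transgenic over wild-type.

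Cullins are scaffolds. At the C-terminal end each binds a RING protein, Rbx1 in most complexes and Rnf7 with Cul5, which brings a ubiquitin-conjugating enzyme. At the other end it binds an adaptor and a substrate receptor, and the receptor decides which protein is marked, usually for the proteasome. Attachment of the small protein NEDD8 switches the ligase on and the COP9 signalosome takes it off. Cul4a and Cul4b are close paralogs that share the adaptor Ddb1 and its receptors. In humans, loss of CUL4B causes X-linked intellectual disability, and CUL3 is a risk gene for autism.

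Cul4b (ENSMUSG00000031095) lies on the minus strand at X:38533274-38576196 and Cul4a (ENSMUSG00000031446) on the plus strand at 8:13105621-13147940, both in GRCm38. The 250 bases before their start sites are shown because the paralogs differed in these mice although they share an adaptor. They are from RefSeq (GRCm38.p6) and count from its start sites, of which that of Cul4a lies inside the gene as Ensembl gives it. They lie at X:38576197-38576446 for Cul4b and 8:13105373-13105622 for Cul4a, written 5′ to 3′ on the strand of the gene with each CG in capitals:

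Cul4b promoter: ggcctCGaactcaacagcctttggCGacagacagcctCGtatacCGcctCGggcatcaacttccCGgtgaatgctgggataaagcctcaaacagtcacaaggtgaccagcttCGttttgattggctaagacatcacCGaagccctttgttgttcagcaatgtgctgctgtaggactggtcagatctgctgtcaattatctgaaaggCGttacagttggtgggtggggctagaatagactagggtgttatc

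Cul4a promoter: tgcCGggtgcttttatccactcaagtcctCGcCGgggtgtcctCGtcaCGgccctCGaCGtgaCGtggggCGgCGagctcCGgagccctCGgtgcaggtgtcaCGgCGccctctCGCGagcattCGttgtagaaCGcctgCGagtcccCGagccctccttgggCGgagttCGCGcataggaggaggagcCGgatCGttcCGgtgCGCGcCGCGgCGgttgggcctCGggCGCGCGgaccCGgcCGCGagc

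The Cul4b stretch held 9 CG and was 50.8% G or C, against 38 CG and 71.6% for Cul4a. Among all 32851 promoters of this length the median was 6 CG (quartiles 2 and 16) and 52.4% G or C. On either strand, the letters TGACG, the core of the cyclic AMP response element, occurred 2 times before Cul4a and 0 times before Cul4b. They were in 17.8% of all promoters. CCAAT occurred 1 time before Cul4b and 0 times before Cul4a (33.8% of all promoters), and GGGCGG 0 and 2 times (32.7%). These are matches of letters only, and no motif contains another.

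Their coding sequences were identical at 73.3% of 2277 aligned bases, and the longest run they shared was 26 bases, shorter than the reads, which the labels give as 76 bases and which were mapped down to 65 bases after trimming. The labels call the run paired-end but name 1 read length. It lies at bases 1999 to 2024 of the 2277-base coding sequence of Cul4a and 2632 to 2657 of the 2910-base coding sequence of Cul4b:

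Shared by Cul4a and Cul4b: ataaagatcaatcaaatccagatgaa

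None of the 3987 windows of 76 bases in Cul4b transcripts occurred in a transcript of another gene. The same held for Cul2 and Cul3, and for the 3 genes with windows of 65 bases. With these shorter windows the shares of the other members ran from 0.216% (Cul9) to 3.44% (Cul4a). Shares below are for 76 bases. Ddb1 shared most, 2.84% of its windows, with Tkfc. In Cul4a, 2.67% of windows were shared with other genes, none of them with Cul4b. Cul1 shared 1.08% with A930035D04Rik and Cul5 0.414% with Gm16124. Rbx1 shared 2.16% of its windows with the pseudogene Rbx1-ps, which was itself at 0.469 CPM in wild-type mice. Cul7 and Cul9 shared 6 windows with each other. On the opposite strand, A930035D04Rik overlaps 192 bp of Cul1 exons and Gm16124 overlaps 110 bp of Cul5 exons. Counting used the strand.

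All 10 genes were well expressed in the hippocampus. Per length, the level in wild-type mice was highest for Ddb1 (59.1 ± 1.67 FPKM, SD, n = 3), followed by Cul3 (31.0 ± 1.16 FPKM), Cul1 (29.9 ± 0.341 FPKM) and Rbx1 (18.5 ± 0.153 FPKM). Below them were Cul4b (14.5 ± 0.923 FPKM), Cul2 (14.2 ± 0.901 FPKM), Cul4a (11.7 ± 0.288 FPKM), Cul5 (9.88 ± 0.160 FPKM), Cul9 (7.74 ± 0.0872 FPKM) and Cul7 (4.42 ± 0.160 FPKM). Neighbours in this order had separate ranges over the 3 mice except Cul3 and Cul1, and Cul4b and Cul2. In transgenic mice Cul4b stood at rank 7, at 9.13 ± 0.119 FPKM, below Cul2 (12.5 ± 0.0774 FPKM) and Cul4a (10.8 ± 0.442 FPKM) and within the range of Cul5 (9.01 ± 0.425 FPKM). Cul1 (28.7 ± 0.242 FPKM) then stood above Cul3 (26.5 ± 0.564 FPKM).

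**Figure D1:**
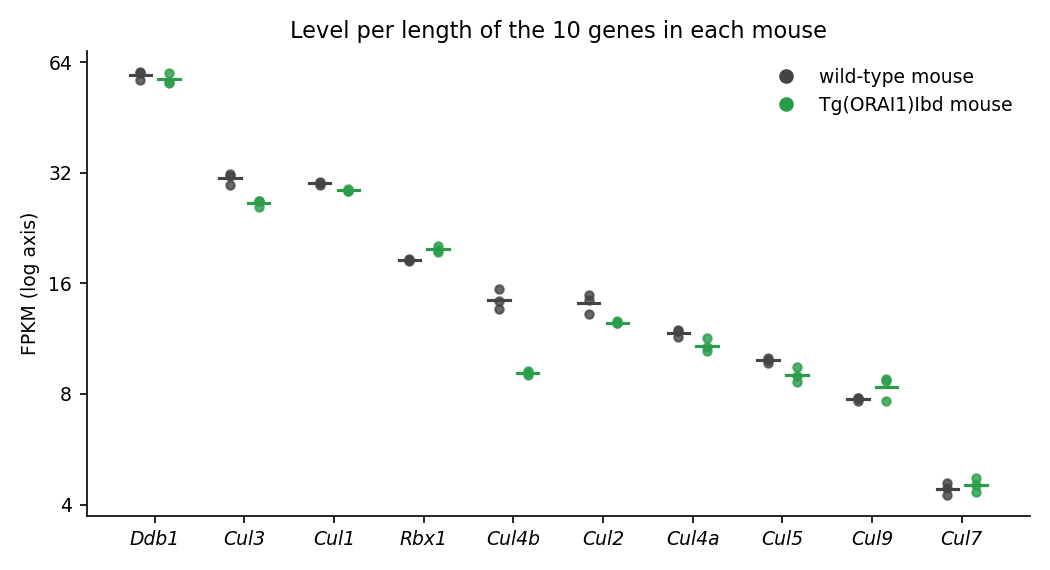
FPKM (log axis) of the 10 genes in each of the 3 wild-type and 3 Tg(ORAI1)Ibd mice, with points for mice and bars for group means, ordered by the wild-type mean. Cul4b is the gene whose groups lie farthest apart, at 14.5 against 9.13 FPKM.

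In transgenic hippocampi Cul4b fell by 36.9%. Cul3 fell by 14.3%, but its call was lost in 9 of 18 alternative settings, and with the GC trend of the libraries removed its log2 fold change was -0.02 (edgeR adjusted p = 0.911). No member passed the test in the other direction. In edgeR 6 of the 10 were at an unadjusted p under 0.05, as were 27.8% of all genes tested, and with GC offsets 2 of the 10 and 21.3%. DESeq2 and limma-voom, which called 11.7% and 6.61% of all genes, called the same 2. These 2 of 10 genes compare with 4.0% of the 19087 genes tested that were lower and 3.1% that were higher, 7.1% in all, by edgeR's quasi-likelihood test at an adjusted p under 0.05. Of the 7 members not picked for PCR, 1 was lower. Without wild-type mouse 3 and transgenic mouse 1, a fit of 2 mice against 2 added after seeing the data, 4 members were lower: Cul4b (log2 fold change -0.69, edgeR adjusted p = 0.000524), Cul3 (-0.23, 0.00551), Cul2 (-0.22, 0.0132) and Cul4a (-0.16, 0.0269). That fit called 4446 of all genes tested, against 1355 with all mice. Over the 10 members the median log2 fold change was -0.09, and over all genes tested it was -0.01. In 6 members, Cul1, Cul2, Cul3, Cul4a, Cul4b and Cul5, each transgenic mouse was below each wild-type mouse in CPM. In Rbx1 each was above, and in Cul7, Cul9 and Ddb1 the groups overlapped. Groups were apart in 34.9% of all genes tested, and in 17.9% with the transgenic mice lower. In bulk RNA, fewer cells of a type that carries a transcript and less of it per cell cannot be told apart.

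Cul4b gave the largest difference of the 10. Wild-type mice 1 to 3 had 59.7, 55.6 and 52.6 CPM, from 3127, 2346 and 1992 counts. The transgenic mice had 34.9, 35.8 and 35.4 CPM, from 1627, 1366 and 1325 counts. The highest transgenic mouse was well below the lowest wild-type mouse. The log2 fold change was -0.66 ± 0.057 (SE, 95% interval -0.80 to -0.53, edgeR adjusted p = 0.00243), a level 36.9% lower. The call was kept with every mouse left out in turn and under every other setting tried.

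Cul4a, the paralog, did not pass the test. It had 75.9, 76.5 and 73.0 CPM in wild-type mice and 72.6, 68.7 and 67.1 CPM in transgenic mice. The transgenic mice were lower by little, and the highest of them nearly met the lowest wild-type mouse. The log2 fold change was -0.11 ± 0.048 (SE, 95% interval -0.22 to -0.0028, edgeR adjusted p = 0.171).

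The ratio of the paralogs within a library needs no scaling, but it still carries any GC trend. Cul4b holds 41.0% G and C and Cul4a 49.1%. With GC offsets their log2 fold changes were -0.50 and -0.08. The log2 ratio of Cul4b to Cul4a counts was -0.35, -0.46 and -0.47 in wild-type mice and -1.06, -0.94 and -0.92 in transgenic mice. The means differed by -0.55, with all transgenic mice lower (exact two-sided permutation test, p = 0.1, the smallest that 3 mice against 3 allow). Per length, Cul4b made up 55.2% ± 1.20 (SD, n = 3) of the summed Cul4 transcripts in wild-type and 45.7% ± 1.26 in transgenic mice. Per length, the more abundant Cul4 paralog was thus Cul4b in each wild-type mouse and Cul4a in each transgenic mouse. By counts Cul4a was above Cul4b in every mouse. The change of order thus rests on the exonic lengths, 6408 bp for Cul4a and 3873 bp for Cul4b, and the lengths of the transcripts in use were not measured. The summed level of Cul4a and Cul4b was 26.2 ± 1.15 FPKM in wild-type and 20.0 ± 0.364 FPKM in transgenic mice, without overlap (exact p = 0.1).

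**Figure D2:**
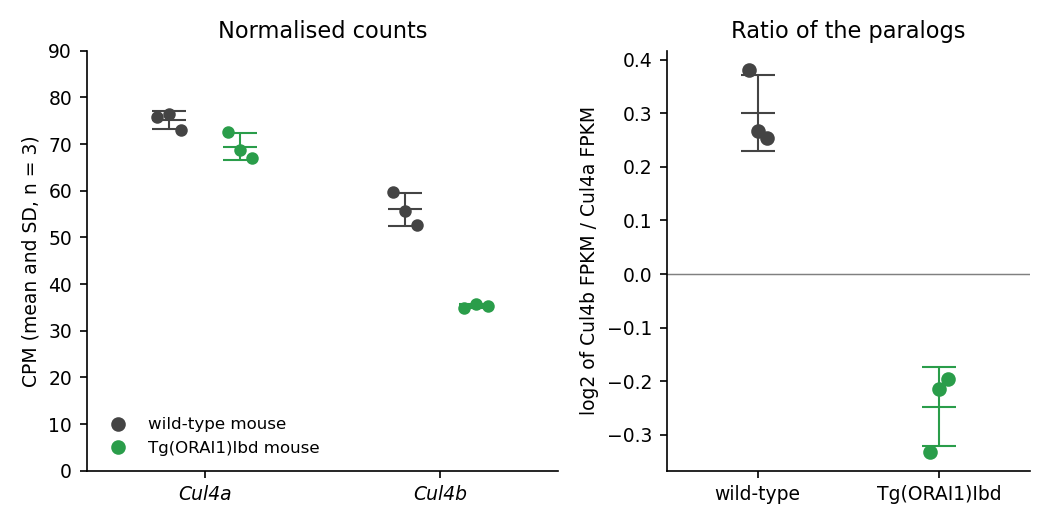
Left, CPM of Cul4a and Cul4b in each mouse with the mean and SD (n = 3); right, the log2 ratio of their FPKM. Cul4b goes from 56.0 to 35.4 CPM and Cul4a from 75.1 to 69.5 CPM, and the ratio lies above 0 in all wild-type mice and below 0 in all transgenic mice.

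Cul4b also moved away from each of the other 9 members. The log2 ratio of its counts to theirs was lower in transgenic mice by between -0.77 (to Cul9) and -0.44 (to Cul3), and every ratio was lower in all 3 transgenic mice (exact p = 0.1 each). Of the summed FPKM of the 8 cullins, Cul4b took 11.7% ± 0.409 (SD, n = 3) in wild-type and 8.33% ± 0.102 in transgenic mice. Shares sum to a whole, so a lower share of Cul4b raises others. The sum itself was 123 ± 3.84 FPKM in wild-type and 110 ± 0.773 FPKM in transgenic mice. Without Cul4b it was 109 ± 2.97 and 100.5 ± 0.737 FPKM, again without overlap (exact p = 0.1 for both). Groups were apart in 34.9% of all genes tested. With GC offsets the log2 fold changes of the 7 cullins other than Cul4b lay between -0.08 (Cul4a) and 0.06 (Cul5).

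Cul3 (1:80264923-80340480), the scaffold that works with BTB-domain receptors, had 155, 153 and 145 CPM in wild-type mice and 126, 131 and 131 CPM in transgenic mice. The transgenic mice were all below the wild-type mice. Its log2 fold change was -0.22 ± 0.045 (SE, edgeR adjusted p = 0.0351). The call was lost when wild-type mouse 1 or 2 or transgenic mouse 2 or 3 was left out (adjusted p = 0.144, 0.150, 0.0967 and 0.108), with log2 fold changes of -0.22 to -0.20 in these fits.

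Of the cullins left, none passed the test. Cul2 (18:3382988-3436377), the scaffold of the von Hippel-Lindau ligase, had 62.9, 60.8 and 55.5 CPM in wild-type and 52.5, 52.6 and 53.1 CPM in transgenic mice. Its groups lay apart, and the wild-type mice spread more than the transgenic mice (log2 fold change -0.18 ± 0.056, SE, edgeR adjusted p = 0.0895, and 0.0461 without wild-type mouse 3). Cul5 (9:53614582-53670014), which works with SOCS-box receptors, had a mean of 80.6 ± 1.31 CPM (SD, n = 3) against 73.5 ± 3.47 CPM (log2 fold change -0.13 ± 0.048, SE, edgeR adjusted p = 0.125). Cul1 (6:47453398-47526139), the scaffold of the SCF ligases, differed least among the genes whose groups lay apart, at 121 ± 1.38 against 116 ± 0.978 CPM (-0.06 ± 0.038, SE, edgeR adjusted p = 0.326). The related Cul7 (17:46650337-46664364) and Cul9 (17:46500572-46546388), which bind p53, lie close together and overlapped between genotypes. Cul7 was at 32.8 ± 1.18 against 33.5 ± 1.45 CPM (edgeR adjusted p = 0.766). Cul9 was at 94.4 ± 1.06 against 102 ± 7.45 CPM (edgeR adjusted p = 0.259), with transgenic mouse 2, at 93.4 CPM, inside the wild-type range.

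The shared subunits did not pass the test either. Ddb1 (19:10605625-10629813), the adaptor of both Cul4 proteins, had 250, 249 and 238 CPM in wild-type and 248, 235 and 233 CPM in transgenic mice. The groups overlapped (log2 fold change -0.04 ± 0.046, SE, 95% interval -0.15 to 0.07, edgeR adjusted p = 0.601). Rbx1 (15:81466296-81476369), the RING subunit, had 84.9, 84.2 and 83.5 CPM in wild-type and 92.2, 89.7 and 88.8 CPM in transgenic mice. It was the only member with every transgenic mouse above the wild-type mice, by 0.10 ± 0.039 on the log2 scale (SE, edgeR adjusted p = 0.153).

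Differences between the genotypes moved with the GC content of genes, the share of G and C in the longest transcript of each. Genes within 1 percentage point of Cul4b (41.0% GC, 1223 genes) were at a median of -0.15 on the log2 scale, and 4.66% of them lay below Cul4b. Around Cul3 (38.5% GC, 648 genes) the median was -0.20, close to the value of Cul3 itself. Around Cul7 and Cul9, the members richest in GC, the median was 0.13. In a fit with the GC trend of each library taken out as an offset, Cul4b was the only member called (log2 fold change -0.50, edgeR adjusted p = 0.0102), against 2.16% of all genes tested. Cul3 then had -0.02 (edgeR adjusted p = 0.911) and Cul2 -0.01 (0.943). Rbx1 had 0.23 (0.0785). Cul1 and Cul5 changed sign to 0.04 and 0.06, and Cul7 to -0.07. Whether the GC trend is technical was not tested.

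**Figure D3:**
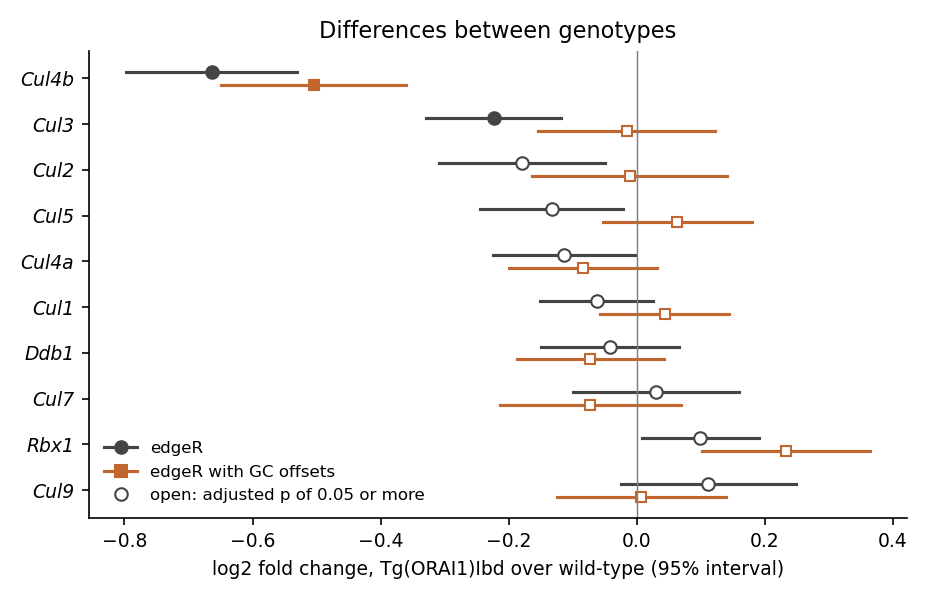
Log2 fold change of each member with its 95% interval from edgeR (circles) and from edgeR with GC offsets (squares), filled where the adjusted p is under 0.05. Cul4b is filled in both fits, at -0.66 and -0.50, and Cul3 in the fit without offsets only.

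Genes whose proteins load, switch and recycle the cullins were counted together. These were 41 genes: the other adaptors and the second RING protein, the NEDD8 pathway, the COP9 signalosome, exchange factors and inhibitors, ubiquitin-conjugating partners, partners of Cul7 and other genes with a cullin domain. edgeR called 0 of them, with 16 at an unadjusted p under 0.05 (27.8% of all genes tested); limma-voom called 0 and DESeq2 5, beside 6.61% and 11.7% of all genes. The 5 were Nedd8 (log2 fold change 0.19, edgeR adjusted p = 0.0592), its conjugating enzyme Ube2m (0.15, 0.0591), the elongin Elob (0.24, 0.0628), the signalosome subunit Cops9 (0.27, 0.0599) and the ubiquitin-conjugating enzyme Ube2r2 (0.15, 0.0600), named after their values were seen.

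The calls lay among the substrate receptors, where 9 of 99 tested genes were lower and 4 higher. With the 41 genes above this made 13 of 140, beside 7.1% of all genes, and the median over the 140 was 0.01. The balance turned under other settings, in which that over all genes did not always move the same way. By DESeq2 13 of the 140 were higher and 10 lower, beside 1055 and 1175 of all genes. With the replicate number as a block 4 were higher and 2 lower, beside 263 and 475. With gene length offsets and this block they were 4 and 2, beside 241 and 355. With gene length offsets 5 were higher and 2 lower, beside 395 and 376, and without wild-type mouse 3 and transgenic mouse 1 20 were higher and 17 lower, beside 2152 and 2294. With all mice and no offsets edgeR called 591 of all genes higher and 764 lower. Genes outside the receptors were called in 6 settings, among them DESeq2 and the fit without these mice, and Cops9 was among them in each. Among receptors of Cul4, 4 of 25 fell and 1 rose, beside 4.0% lower and 3.1% higher of all genes. None of these was called with GC offsets. Brwd3, a bromodomain protein whose human counterpart is an X-linked intellectual disability gene, fell from 30.6, 27.2 and 24.8 CPM to 15.1, 18.7 and 20.2 CPM (log2 fold change -0.62 ± 0.120, SE, edgeR adjusted p = 0.0321). Its relative Phip fell by 0.30 on the log2 scale (edgeR adjusted p = 0.0446), as did Dcaf17 (by 0.30, 0.0307). The fourth was Crbn, which encodes cereblon, the target of thalidomide (-0.20, edgeR adjusted p = 0.0370), and lies outside the limit of 4 names per list. Wdtc1, a receptor linked to fat storage, rose (0.31, edgeR adjusted p = 0.0195).

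The counts for receptors of the other cullins stand beside 4.0% of all genes lower and 3.1% higher. Among receptors of Cul2, 3 of 10 fell, none of them called with GC offsets: Fem1c, a reader of protein C-termini (-0.33, edgeR adjusted p = 0.0464), Zyg11b, a reader of N-terminal glycine (-0.23, 0.0332), and Appbp2 (-0.20, 0.0429). Of the 25 tested receptors of Cul3, Klhl13 fell (-0.40, edgeR adjusted p = 0.0344). Of the 16 receptors of Cul1, the F-box gene Fbxo31 rose (0.23, edgeR adjusted p = 0.0295). Among 23 receptors of Cul5, Cish, an inhibitor of cytokine signalling, fell from 5.33, 6.07 and 4.44 CPM to 2.96, 3.46 and 3.23 CPM (-0.72, edgeR adjusted p = 0.0353). The small GTPase gene Rab40c rose from 36.3, 34.9 and 34.4 CPM to 48.0, 48.0 and 46.8 CPM (0.43, edgeR adjusted p = 0.00570), and Wsb2 rose as well (0.19, 0.0381). With GC offsets 2 of the 140 were called, Rab40c higher and Cish lower. Rab40c alone was called when wild-type mouse 1 or 2 or transgenic mouse 2 or 3 was left out.

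**Figure D4:**
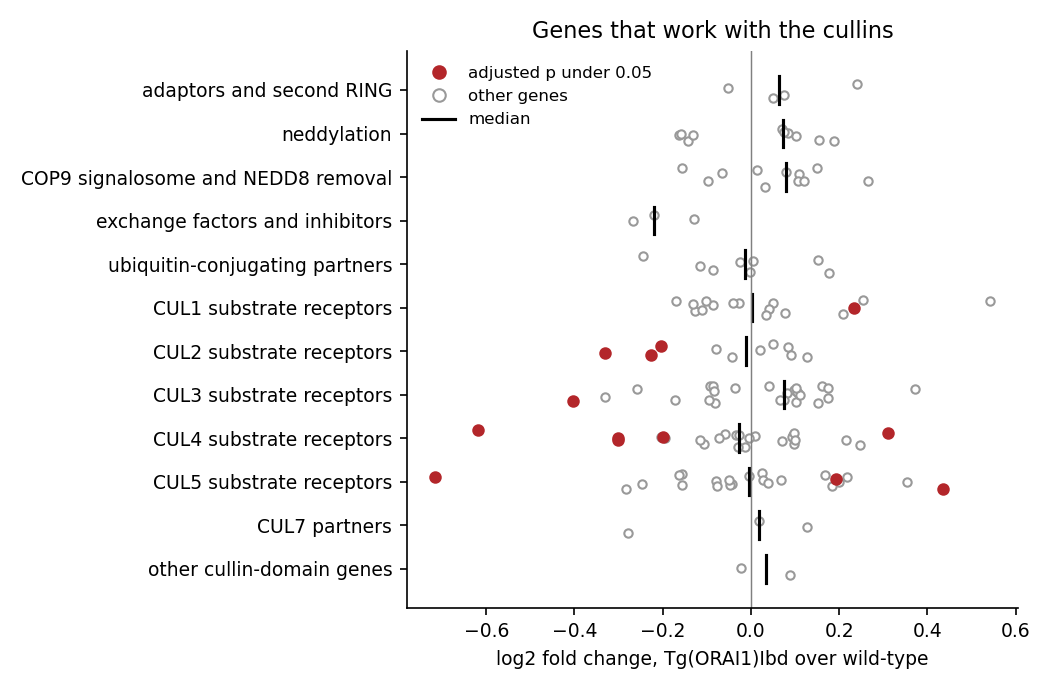
Log2 fold change of 140 genes that work with the cullins, by role, with filled points for an adjusted p under 0.05 and bars for list medians. The 13 filled points of this test all lie in the lists of substrate receptors, 9 below and 4 above 0.

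Of 25 other genes within 500 kb of Cul4b, 8 could be tested. edgeR called 0 of them, with 3 at an unadjusted p under 0.05; limma-voom called 0, and DESeq2 called Zbtb33 and Lamp2, 2 of 8 beside 11.7% of all genes. Their log2 fold changes were -0.32 for Zbtb33, which encodes the methyl-DNA binding protein Kaiso (edgeR adjusted p = 0.0566), and -0.39 for Lamp2, a lysosomal membrane protein (0.113). Mcts1, which starts 24.4 kb from Cul4b on the other strand, was at -0.11 (0.203), and C1galt1c1, a chaperone of O-glycosylation, at -0.25 (0.131). Tmem255a was at 0.07, and the non-coding or pseudogene entries Gm7598, Ap3s1-ps1 and Gm14567 were at 0.26, -0.05 and -0.38. In all, 6 of the 8 were below 0, as were 9871 of the 19087 genes tested. With GC offsets Mcts1 and Ap3s1-ps1 were above 0, at 0.07 and 0.13, and the other neighbours kept their signs. Across the X chromosome, 50 of 647 tested genes were lower (7.73%) and 16 higher (2.47%), beside 4.0% and 3.1% of all genes, and the median was -0.09 beside -0.01. This difference was not tested.

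**Figure D5:**
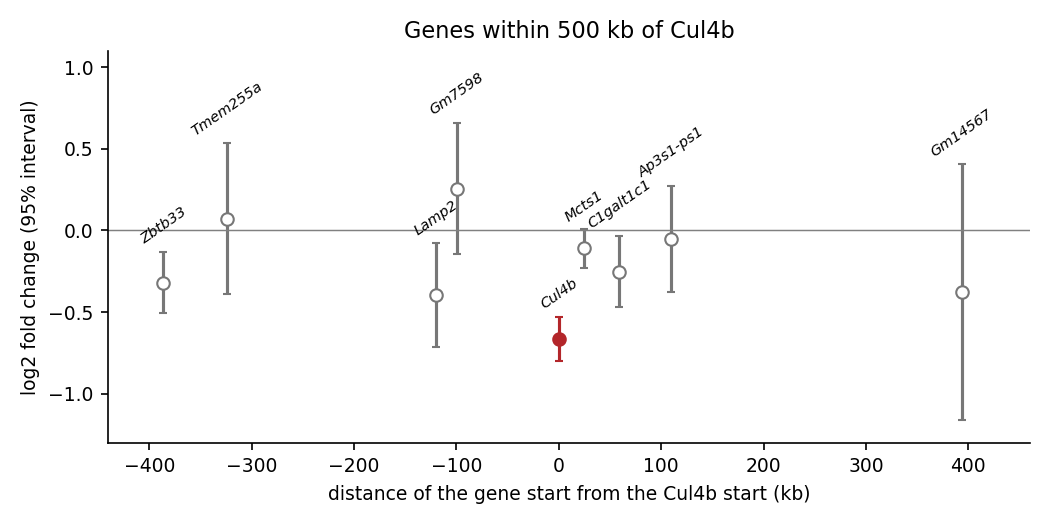
Log2 fold change with its 95% interval for Cul4b (filled) and the 8 tested genes within 500 kb, against the distance of their start sites in kb. Cul4b is at -0.66, and the neighbours run from -0.39 to 0.26.

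The genes whose log2 CPM followed that of Cul4b most closely over the 6 libraries were Pikfyve, a lipid kinase of endosomes (Pearson r = 0.9995, log2 fold change -0.32), the sodium channel gene Scn2a (r = 0.997, -0.36), the ciliary gene Tmem237 (r = 0.997, -0.57), Dolk (r = 0.996, -0.21) and Sptlc2, of sphingolipid synthesis (r = 0.995, -0.21). With 6 libraries in 2 groups such values are a description only, and 548 genes had r above 0.95. Among the members, r with Cul4b was 0.98 for Cul3, 0.97 for Cul1, 0.92 for Cul2, 0.87 for Cul5, 0.83 for Cul4a, 0.55 for Ddb1, -0.20 for Cul7, -0.66 for Cul9 and -0.91 for Rbx1.

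Markers of other cells moved with the genotype as well. All 16 markers of the choroid plexus epithelium were lower in transgenic mice, with a summed 2532 to 4487 CPM in wild-type and 261 to 496 CPM in transgenic mice, and none at 0. Of 7 neuronal markers, Slc17a7 was higher (0.26) and Gad2 lower (-0.52), and of 4 endothelial markers Cldn5 was higher (0.66), all named after their values were seen. With GC offsets these 3 calls were lost (edgeR adjusted p = 0.106, 0.0804 and 0.102), while all 16 choroid plexus markers stayed lower. None of the 5 markers each of hippocampal fields, astrocytes, oligodendrocytes and microglia was called, with 1 of the 20 at an unadjusted p under 0.05 in edgeR and 0 calls by DESeq2 or limma-voom. The part of these cells in the differences of Cul4b and Cul3 was not tested.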

How the data were processed

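The authors deposited raw counts of fragments, unnormalized, and exonic gene lengths. Reads had been trimmed with Trimmomatic, aligned to mm10 with STAR and counted with featureCounts 1.5.0-p1 (strand setting 2, mapping quality of at least 3, Ensembl 95 annotation). Column labels gave the genotypes.

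Members and lists were chosen with earlier results of these data known. All members were named. Of each list, called genes were named, at most 4 by size of change, with genes within 500 kb of Cul4b and the 5 most alike to it. Of 142 listed pathway genes, 141 were found and 140 tested.

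Genes passing filterByExpr (minimum count 10; 19087) were TMM-scaled and tested with edgeR's quasi-likelihood test without covariates, with Benjamini-Hochberg adjustment over all of them and a threshold of 0.05. Single ratios had exact two-sided permutation tests over mice. Replicates are mice, and at 3 against 3 no exact p is below 0.1. FPKM were computed from counts, lengths and scaled totals. For GC or length offsets, a loess trend (span 0.5) was removed per library. Transcript sequences and GC came from GENCODE M21. The scripts were tested on simulated data. R 4.3.3, edgeR 4.0.16, limma 3.58.1, DESeq2 1.42.0, Python 3.11.15, numpy 2.4.6, pandas 2.3.3, scipy 1.17.1 and matplotlib 3.10.9 were used. Alternatives were other scalings, filters, tests, offsets, a replicate block and leaving out each mouse; leaving out 2 mice together was added after seeing the data.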

Additional observations from a re-analysis of the deposited data

How the results depend on the processing

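The lower level of Cul4b kept its direction and stayed past the threshold in all 18 alternative settings. Its log2 fold change ran from -0.71 to -0.61 with each mouse left out (edgeR adjusted p = 0.00311 to 0.0221) and from -0.67 to -0.50 under the other settings (adjusted p up to 0.0102). The difference in the log2 ratio of Cul4b to Cul4a ran from -0.57 to -0.51 with each mouse left out.

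Cul4b was the 1 member called with GC offsets, with gene length offsets, with the replicate number as a block, and with either offset and the block. With each mouse left out, 1 to 3 members were called, 1 without wild-type mouse 1 or 2 or transgenic mouse 2 or 3, and 3 (with Cul2) without wild-type mouse 3. Cul3 lost its call in 9 of the 18 settings. Signs turned in both fits with GC offsets, without and with the block, for Cul1 (0.0435 and 0.0431), Cul5 (0.0630 and 0.0620) and Cul7 (-0.0729 and -0.0738).

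Pathway genes called were 23 by DESeq2's Wald test (13 higher, 10 lower), 2 with GC offsets, 3 with GC offsets and the block, 7 with gene length offsets, 6 with these and the block, and 6 with the block alone. They were 1 to 11 with each mouse left out. Over all genes these settings called 2230, 412, 485, 771, 596 and 738, and leaving out a mouse 74 to 1147, 74 without wild-type mouse 1, 95 without wild-type mouse 2, 169 without transgenic mouse 2 and 106 without transgenic mouse 3. Without transgenic mouse 1 the count was 1147 and without wild-type mouse 3 it was 1097. Without both of these mice, which stood apart from their groups, 4 members, 37 pathway genes and 4446 of all genes were called, and Cul4b was at -0.69 (edgeR adjusted p = 0.000524). That fit was chosen after seeing the data and rests on 2 mice a group. The cause of these changes was not tested. With the block or with length offsets, with or without the block, the called pathway genes were 4 or 5 higher and 2 lower. Over all genes 263 were higher and 475 lower with the block, 395 and 376 with length offsets, and 241 and 355 with both. Outside the receptors, Cops9 was called with the block, with GC offsets and the block, and without a filter on low counts. It was also called by DESeq2, without wild-type mouse 3, and without both mice.

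Same-numbered mice share only a number. Their deviations from the group means correlated at -0.36 to 0.40 over 11191 genes (mean 0.14), and those of mice with different numbers at -0.59 to 0.54 (mean -0.09). Wild-type mouse 3 went with transgenic mice 2 (0.54) and 3 (0.39) and against transgenic mouse 1 (-0.59), while wild-type mice 1 and 2 went with transgenic mouse 1 (0.40 each). With the replicate block, Cul4b was at -0.66 (edgeR adjusted p = 0.00709), and the paired difference of the log2 ratio was -0.55 (exact paired permutation p = 0.25, the smallest that 3 pairs allow). Counts of 1992 to 3127 for Cul4b in wild-type mice leave little counting error. The number of mice sets the smallest exact p.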
